A study of Homo sapiens with 4 samples.

Results

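The 10 genes described here encode the FOS proteins (FOS, FOSB, FOSL1 and FOSL2), the JUN proteins (JUN, JUNB and JUND), the related factors ATF3 and BATF3, and the zinc finger factor EGR1. They form a list of names, with no threshold on their values, but the list was chosen with earlier results of these data known. All 10 were found by Ensembl identifier among the 58735 gene rows of the count table. Their RNA was measured in the human triple-negative breast cancer (TNBC) lines MDA-MB-231 and SUM159 after 72 h in 1 µM mebendazole (MBZ), an anthelmintic drug that binds tubulin, or in DMSO, its vehicle. Each of the 4 conditions had 1 library, MDA-MB-231 cells came from a repository and SUM159 cells from another laboratory, and the lines were kept in different media, with insulin and hydrocortisone only in that of SUM159. Line, medium and source therefore cannot be told apart.

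AP-1 is a dimer of leucine zipper proteins that binds the DNA sequence called TRE (TGACTCA). JUN proteins pair with each other or with FOS proteins, whereas FOS proteins need a JUN partner. ATF3 and BATF3 carry the same type of zipper, ATF3 also binds the related sequence CRE (TGACGTCA), and EGR1 is no AP-1 protein but is transcribed, like FOS, within minutes of a growth or stress signal. Such genes are called immediate-early genes, and serum response factor binds several of them at a sequence named the CArG box. FOSL1, whose product is FRA-1, is known for its high level in invasive triple-negative breast cancer cells.

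Promoter sequence is shown for 5 members, ATF3 and FOSB because both were far higher with MBZ in both lines, JUND and EGR1 because they hold the CRE and the CArG box, and JUN because it shares a variant of the CRE with ATF3. The sequences are the bases before the start site in RefSeq (GRCh38.p14), outside the gene body of GENCODE release 44, written 5' to 3' on the gene's strand. Capitals mark the CRE, its variant TGACATCA or the CArG box. The ATF3 stretch is chr1:212565157-212565333 on the plus strand, and it ends at base -74 because the GENCODE gene begins there.
ATF3: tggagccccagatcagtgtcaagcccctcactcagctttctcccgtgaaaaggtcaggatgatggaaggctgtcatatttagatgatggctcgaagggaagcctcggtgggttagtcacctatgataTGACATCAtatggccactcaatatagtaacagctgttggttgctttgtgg
FOSB: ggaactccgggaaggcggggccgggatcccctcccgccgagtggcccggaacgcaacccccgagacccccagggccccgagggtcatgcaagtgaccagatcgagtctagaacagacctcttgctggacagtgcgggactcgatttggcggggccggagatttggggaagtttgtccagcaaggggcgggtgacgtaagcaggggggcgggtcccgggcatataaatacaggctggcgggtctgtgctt
JUN: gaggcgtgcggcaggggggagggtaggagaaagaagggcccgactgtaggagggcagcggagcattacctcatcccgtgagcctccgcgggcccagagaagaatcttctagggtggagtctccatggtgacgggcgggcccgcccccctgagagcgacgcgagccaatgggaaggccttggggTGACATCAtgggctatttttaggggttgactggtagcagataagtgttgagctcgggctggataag
JUND: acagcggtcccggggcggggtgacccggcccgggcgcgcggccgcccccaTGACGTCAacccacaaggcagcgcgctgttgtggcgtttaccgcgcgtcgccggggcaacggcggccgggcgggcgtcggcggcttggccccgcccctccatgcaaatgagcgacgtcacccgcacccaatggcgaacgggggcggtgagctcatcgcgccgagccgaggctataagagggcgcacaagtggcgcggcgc
EGR1: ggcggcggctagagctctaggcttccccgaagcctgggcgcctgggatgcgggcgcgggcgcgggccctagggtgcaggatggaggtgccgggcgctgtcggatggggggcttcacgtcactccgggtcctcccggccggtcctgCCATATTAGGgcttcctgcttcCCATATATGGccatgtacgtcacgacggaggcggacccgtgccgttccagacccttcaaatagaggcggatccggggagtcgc
The other stretches are chr19:45467746-45467994 (plus strand) for FOSB, chr1:58784049-58784297 (minus strand) for JUN, chr19:18281623-18281872 (minus strand) for JUND and chr5:138465229-138465478 (plus strand) for EGR1.

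Matches on both strands were sought from 250 bases before to 50 bases after the start, in the RefSeq windows of 8 of the 10 members. Windows for FOSL1 and BATF3 were not used here. The ATF3 window lies at the 5' end of its gene, which runs to chr1:212620777, and no start further inside the gene is described here. Counts per gene do not show from which start the ATF3 RNA was made. ATF3 and JUN each held TGACATCA, at -123 to -116 and at -67 to -60, a sequence present in 2.61% of all 35116 windows. JUND held the full CRE at -200 to -193, found in 1.85% of windows, and EGR1 held CArG boxes at -105 to -96 and at -83 to -74, found in 1.29%. FOSL2 held the TRE, found in 4.95%, at bases 5 to 11 after its start. The shorter TGACG, which is also part of the CRE and which 24.6% of all windows hold, lay in the windows of 7 of the 8 members, all but ATF3, for example in FOS at -64 to -60, in FOSB at -60 to -56 and in JUNB at -137 to -133. A match is a description of the letters and not of a bound site. Sites outside the window were not sought, so a member with no match in it may hold one further away.

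Change with MBZ is given as the log2 fold change, MBZ over DMSO, after TMM normalization, a scaling for library size and composition, over the 2 libraries of a line. The 95% interval given with it is exact (Clopper-Pearson, from how a gene's reads divide between the pair). It holds counting error alone, and reads copied by PCR are not separate molecules. Since each condition had 1 library, nothing is known of the variation between cultures, and no test was made within a line. A gene counted as higher or lower where it differed by at least 2-fold and averaged 10 counts or more in the pair. The libraries held 17143139 to 24897586 counts. Scaling by total counts alone shifted the median log2 fold change by 0.27 in MDA-MB-231 and by 0.30 in SUM159, so changes of this size depend on the scaling.

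The labelled cells were checked against their markers. PGR had 0 counts in each library and ESR1 had 0 to 18, while ERBB2 had 1216 to 1996, VIM 20703 to 54409, CDH1 0 to 12 and EPCAM 6 to 190. CD44 had 7435 to 20239 counts, the keratin gene KRT18 4197 to 10874 and KRT5 0 to 13. The 3 markers of other cell types summed to 373 and 353 counts in MDA-MB-231 (DMSO and MBZ) and to 872 and 886 in SUM159, mostly from PECAM1, with ALB at 0 to 2 and PTPRC at 8, 23, 216 and 60 in the same order. PTPRC was thus higher with MBZ in MDA-MB-231 and lower in SUM159, and its part in the values given here was not tested.

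In MDA-MB-231 cells, FOS, FOSB, JUNB and ATF3 were at least 2-fold higher with MBZ, 4 of the 10 members, where 9.05% of all genes compared were, and 0 members were at least 2-fold lower, where 5.14% of all genes were. In SUM159 cells, FOSB, FOSL1 and ATF3 were at least 2-fold higher, 3 of the 10, against 12.7% of all genes, and 0 were lower, against 10.7%. ATF3 and FOSB were higher in both lines, as were 2.48% of the 13733 genes compared in both, and no member was lower in both, where 1.09% of genes were. The median log2 fold change of the members was 0.43 in MDA-MB-231 and 0.70 in SUM159, and that of all genes was -0.018 and -0.034. In bulk RNA, fewer cells with a transcript and less of it per cell cannot be told apart.

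**Figure D1:**
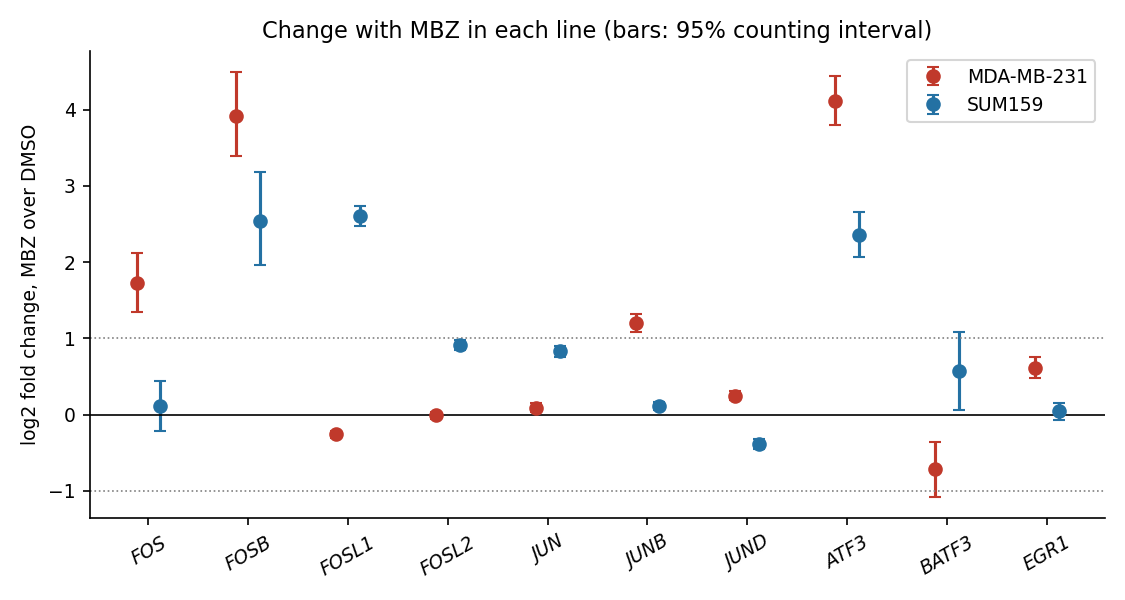
The log2 fold change of each member, MBZ over DMSO, on the vertical axis, for MDA-MB-231 (red) and SUM159 (blue). Points are single pairs of libraries, bars are 95% counting intervals and dotted lines mark a 2-fold change. ATF3 and FOSB lie above the upper line in both lines, while FOS and JUNB do so in MDA-MB-231 and FOSL1 in SUM159.

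ATF3, a stress-induced factor that acts mostly as a repressor when bound as a homodimer, had the largest change of the members in MDA-MB-231. Its 4-exon gene spans chr1:212565334-212620777 (ENSG00000162772). In MDA-MB-231 the DMSO library held 89 ATF3 counts and the MBZ library 1276, and in SUM159 they held 114 and 726. The log2 fold change was 4.11 (3.80 to 4.44) in MDA-MB-231, which is 17.3-fold, and 2.35 (2.07 to 2.65) in SUM159, which is 5.11-fold. Both MBZ libraries lay above both DMSO libraries. ATF3 ranked 50 from the highest of 15142 genes in MDA-MB-231 and 516 of 15674 in SUM159.

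FOSB (ENSG00000125740, chr19:45467995-45475179) encodes an immediate-early FOS protein whose spliced forms can persist after the signal, and the counts do not separate these forms. In MDA-MB-231 it went from 31 counts (DMSO) to 388 (MBZ), and in SUM159 from 27 to 197. These are log2 fold changes of 3.91 (3.39 to 4.50) and 2.55 (1.97 to 3.19), or 15.1-fold and 5.84-fold. FOSB went from the lowest level of all members to one near that of FOS in MDA-MB-231, and its low DMSO counts give it the widest intervals among the members above 2-fold.

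A change shared by both lines was tested for each of 16100 genes with edgeR's quasi-likelihood test, with cell line and treatment in the model and Benjamini-Hochberg adjustment. The fit leaves 1 residual degree of freedom, and it measures how unlike the responses of the lines were, not how cultures vary. It called 1 gene, 0.00621% of those tested, and 0 members at an adjusted p under 0.05. At an unadjusted p under 0.05 it had 1150 genes, including ATF3 and FOSB. The shared log2 fold change was 3.27 for ATF3 (SE 0.50, edgeR adjusted p = 0.327, between 8.4e-12 and 1.00 over the alternatives) and 3.28 for FOSB (SE 0.57, edgeR adjusted p = 0.389, between 6.5e-07 and 1.00), each higher with MBZ in 2 of 2 lines. DESeq2's Wald test with the same model called both, with adjusted p = 6.5e-05 for ATF3 and 0.0020 for FOSB, among 96 genes called, 0.706% of the 13603 with an adjusted p. In edgeR itself both were called when every gene with at least 1 count was tested, among 298 of 32295 genes (0.923%). The call thus turned on the tool and on the filter. Shared values and SEs of that fit were near those above, at 3.24 (SE 0.41) for ATF3 and 3.25 (SE 0.52) for FOSB. Its far smaller adjusted p came without any added library. For the other 8 members, the first edgeR fit had shared values from -0.053 (BATF3) to 1.20 (FOSL1) and edgeR adjusted p-values from 0.730 to 0.988.

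FOS and JUNB were at least 2-fold higher with MBZ in MDA-MB-231, EGR1 had a value above 0 there without reaching 2-fold, and in SUM159 the 3 genes had values of 0.11 or less. FOS (ENSG00000170345, chr14:75278826-75282230), the founding FOS protein, had 79 and 216 counts in MDA-MB-231 (DMSO and MBZ), a log2 fold change of 1.72 (1.35 to 2.11). In SUM159 its 136 and 183 counts gave 0.11 (-0.22 to 0.44), an interval that includes 0. FOS was thus lower in the MDA-MB-231 DMSO library than in the other 3, also per length.

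JUNB (ENSG00000171223, chr19:12791486-12793315), a JUN protein of 1 exon that often opposes JUN on growth genes, had 861 and 1638 counts in MDA-MB-231 and 4539 and 6096 in SUM159. The log2 fold change was 1.20 (1.08 to 1.32) in MDA-MB-231 and 0.11 (0.054 to 0.165) in SUM159. Its exons share 259 bases with HOOK2 on the opposite strand, and HOOK2 itself had 433, 399, 542 and 561 counts in the same order of libraries. The strand setting of the counting was not given in the sources used here, so reads of this stretch cannot be assigned with certainty.

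EGR1 (ENSG00000120738, chr5:138465479-138469303), the growth response factor with the CArG boxes shown above, had 719 and 913 counts in MDA-MB-231 and 1089 and 1394 in SUM159. Its log2 fold change was 0.62 (0.47 to 0.76) in MDA-MB-231 and 0.040 (-0.075 to 0.156) in SUM159. Neither reached 2-fold.

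FOSL1 was at least 2-fold higher with MBZ in SUM159, and FOSL2 and JUN came close to it without reaching 2-fold. FOSL1 (ENSG00000175592, chr11:65892049-65900573) had 585 and 4434 counts in SUM159 (DMSO and MBZ), a log2 fold change of 2.61 (2.48 to 2.73) or 6.09-fold. In MDA-MB-231, where FOSL1 was already the member of highest level, it had 9618 and 6646 counts. The log2 fold change there was -0.26 (-0.31 to -0.22), a direction that is lost under scaling by total counts. The SUM159 DMSO library stood far below the other 3 for FOSL1. It was also the lowest of the 4 for the mitotic genes CCNB1, CDC20, AURKA and BUB1, chosen after their values were seen. CCNB1, the cyclin of entry into mitosis, had 9431 and 5084 counts in MDA-MB-231 and 723 and 6625 in SUM159. The log2 fold changes of the 4 genes ran from -0.69 to -0.35 in MDA-MB-231 and from 2.64 to 3.23 in SUM159, and their part in the FOSL1 values was not tested.

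FOSL2 (ENSG00000075426, chr2:28392448-28417317), which encodes FRA-2, had 9112 and 7490 counts in MDA-MB-231 and 3109 and 7279 in SUM159. Its log2 fold change was -0.010 (-0.055 to 0.034) and 0.91 (0.85 to 0.97). JUN (ENSG00000177606, chr1:58776845-58784048), a gene of 1 exon whose protein is activated by JNK kinases and can drive its own promoter, had 5045 and 4441 counts in MDA-MB-231 and 2525 and 5581 in SUM159. The log2 fold change of JUN was 0.089 (0.030 to 0.147) and 0.83 (0.76 to 0.90). Both genes stayed under 2-fold in SUM159 with this scaling and passed it, at 1.21 and 1.13 on the log2 scale, with total counts.

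JUND and BATF3 lay on opposite sides of 0 in the lines. JUND (ENSG00000130522, chr19:18279694-18281622), the JUN protein that resting cells also make, had 3984 and 3921 counts in MDA-MB-231 and 3749 and 3560 in SUM159. Its log2 fold change was 0.25 (0.19 to 0.31) and -0.39 (-0.46 to -0.32), and with total counts it was 0.52 and -0.090. BATF3 (ENSG00000123685, chr1:212686417-212699840), best known from dendritic cells, had 197 and 99 counts in MDA-MB-231 and 51 and 94 in SUM159. Its log2 fold change was -0.72 (-1.08 to -0.36) in the former and 0.56 (0.059 to 1.09) in the latter, and neither JUND nor BATF3 reached 2-fold in a line. BATF3 lies 65639 bases from ATF3 on the same chromosome, and in MDA-MB-231 the values of the neighbours had opposite signs.

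**Figure D2:**
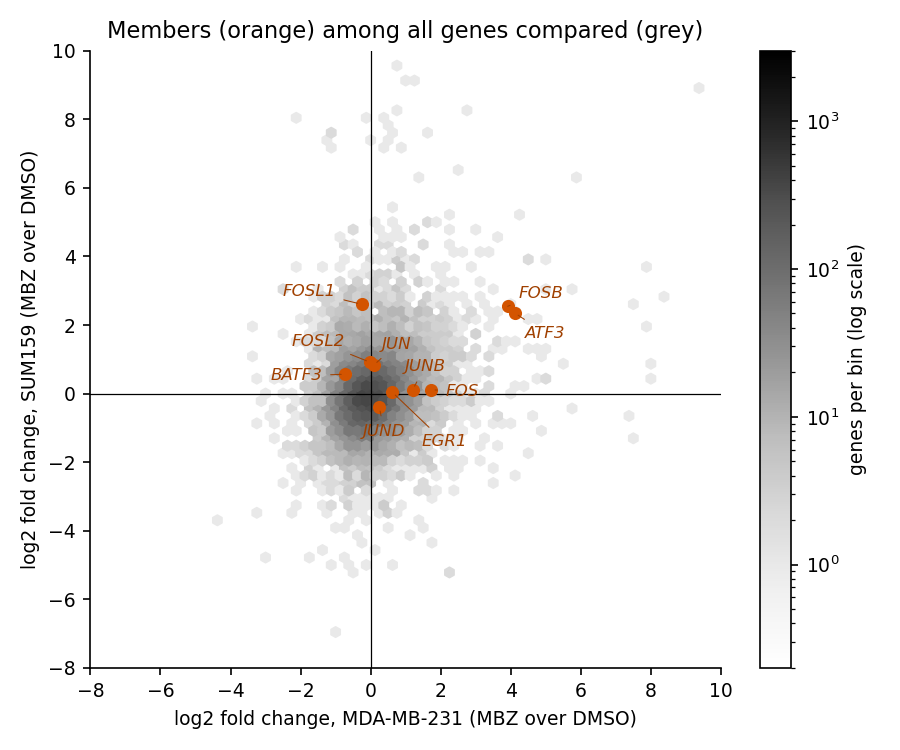
Log2 fold change (MBZ over DMSO) in MDA-MB-231 on the horizontal and in SUM159 on the vertical axis for the 13733 genes compared in both lines, as bins shaded by the number of genes, with the 10 members in orange. ATF3 and FOSB lie together at upper right, apart from the dense centre. FOS and JUNB lie along the horizontal and FOSL1 along the vertical axis.

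Levels can be compared between genes only per length, and were expressed as CPM (counts scaled to library size, with TMM over the 4 libraries) per kb of exon. Exon length here is the union of all annotated exons of a gene. Levels and shares of genes whose main transcript is shorter are therefore understated, and the counting intervals do not cover this. With DMSO, FOSL1 was the highest member in MDA-MB-231 at 219 CPM per kb and JUNB the highest in SUM159 at 149.7. The level of FOSL1 in SUM159 with DMSO was 18.7, so that MDA-MB-231 had 11.7-fold more, and with MBZ the levels of 185 and 114 differed 1.63-fold. JUNB was the reverse, 7.40-fold higher in SUM159 than in MDA-MB-231 with DMSO. FOSB was the lowest member in 3 of the 4 libraries at 0.240 (MDA-MB-231, DMSO), 0.294 and 1.72 CPM per kb (SUM159, DMSO and MBZ), and in the MDA-MB-231 MBZ library it was 3.68, above FOS and BATF3.

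ATF3 was at 0.958 CPM per kb with DMSO and at 16.8 with MBZ in MDA-MB-231, and at 1.72 and 8.81 in SUM159. Its place in the order of members went from 9 to 6 in MDA-MB-231 and from 8 to 7 in SUM159. JUND at 88.9 to 117 and JUN at 42.1 to 74.7 were among the 4 highest members in each library. Neighbours in the order whose counting intervals overlapped were FOS and ATF3 (MDA-MB-231, DMSO), ATF3 and EGR1 as well as FOSB and FOS (MDA-MB-231, MBZ), EGR1 and FOSL1 as well as ATF3 and BATF3 (SUM159, DMSO), and BATF3 and FOSB (SUM159, MBZ).

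**Figure D3:**
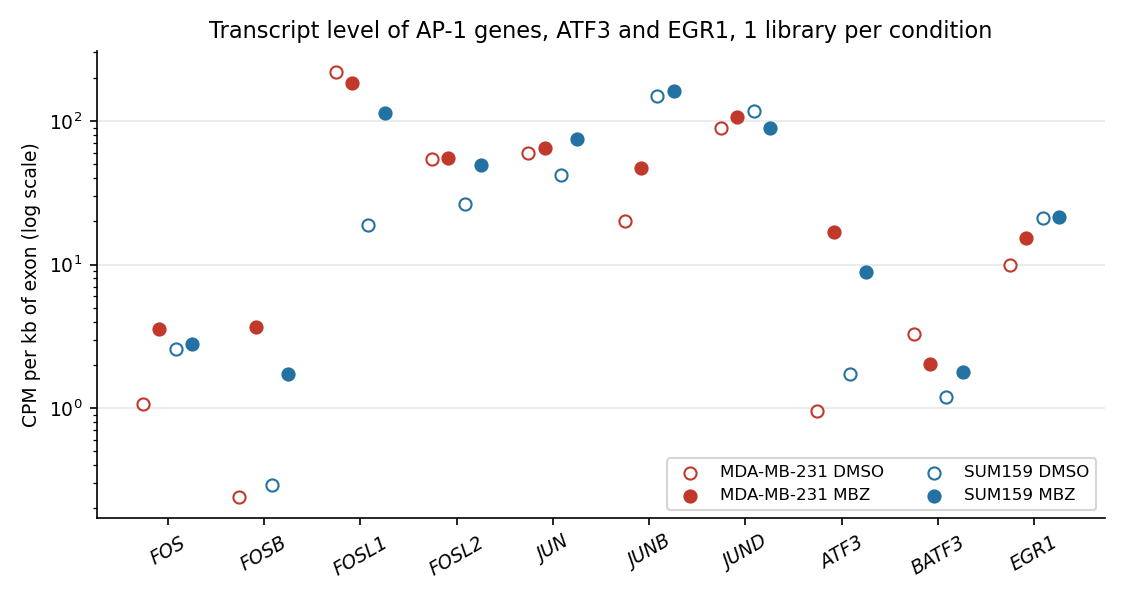
Level of each member in CPM per kb of exon on a logarithmic axis, with open circles for DMSO and filled circles for MBZ, MDA-MB-231 in red and SUM159 in blue. Each circle is 1 library. The open circles of ATF3 and FOSB lie at 0.240 to 1.72, far under their filled circles, and for FOSL1 the open SUM159 circle stands alone at 18.7.

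The makeup of the FOS and JUN families, as shares of the summed CPM per kb, differed between lines with DMSO. FOSL1 made up 79.6% (79.2 to 80.1, counting interval with the other members held fixed) of FOS family RNA in MDA-MB-231 and 39.2% (37.0 to 41.3) in SUM159, where FOSL2 made up 54.8% (52.8 to 56.8). With MBZ, the FOSL1 share was 74.9% (74.2 to 75.5) and 67.9% (67.1 to 68.7), so FOSL1 was then the main FOS family transcript in both lines. The FOSB share was 0.0872% (0.0593 to 0.124) and 1.49% (1.34 to 1.64) in MDA-MB-231, a minor part of the family in each.

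In the JUN family, the JUNB share in MDA-MB-231 was 12.0% (11.2 to 12.7) with DMSO and 21.6% (20.7 to 22.5) with MBZ. In SUM159 it was 48.4% (47.5 to 49.4) and 49.6% (48.8 to 50.4). There JUN went from 13.6% (13.1 to 14.1) to 22.9% (22.4 to 23.5) and JUND from 38.0% (37.0 to 38.9) to 27.5% (26.7 to 28.2). Summed FOS family levels were 275 and 248 CPM per kb in MDA-MB-231 and 47.8 and 168 in SUM159. The ratio of summed JUN to summed FOS levels was therefore 0.614 and 0.882 in MDA-MB-231 and 6.47 and 1.94 in SUM159, closer between the lines with MBZ than with DMSO.

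**Figure D4:**
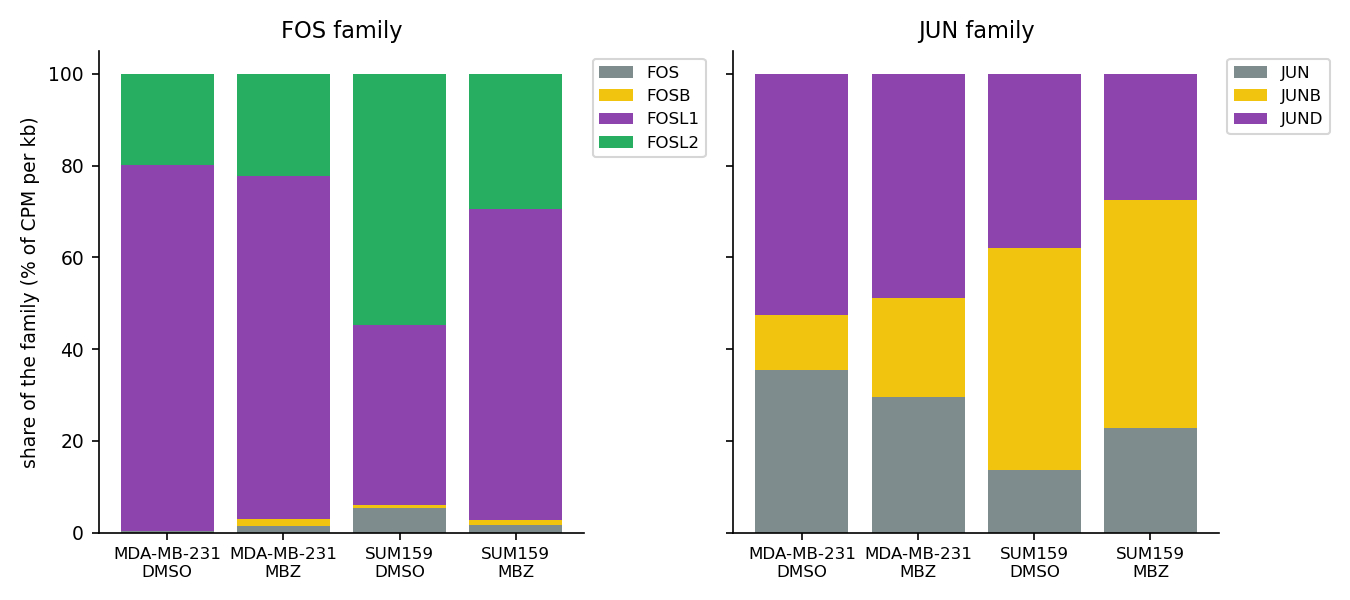
Share of each gene in the summed CPM per kb of the FOS family (left) and the JUN family (right), in percent, for the 4 libraries. FOSL1 takes 79.6% and 74.9% of the FOS family in MDA-MB-231 and 39.2% and 67.9% in SUM159 (DMSO and MBZ), and JUNB takes 12.0% and 21.6% of the JUN family in MDA-MB-231.

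Other groups of genes linked to AP-1 and ATF3, 7 in all, were described by the same counts, beside the shares of all genes given above. Exonic overlaps are given for only some of these genes. Others also share exonic bases with a gene on the opposite strand, for example MAFK (809 of 4470 with TMEM184A) and NR4A1 (754 of 7295 with NR4A1AS). Further examples are PHLDA1 (553 of 5913 with PHLDA1-AS1) and IL6 (428 of 4321 with IL6-AS1). Of the other genes of the AP-1 class, 11 of 12 had enough counts in MDA-MB-231 and 9 in SUM159, with medians of 0.44 and -0.053. MAFF, a small MAF protein that lacks an activation domain, was at least 2-fold higher in both lines at 1.03 and 1.17, and its relative MAFK was at 0.67 and 1.09. BATF2 was also higher in MDA-MB-231, from 8 to 36 counts, and ATF7, which shares 2136 exonic bases with a non-coding gene on the opposite strand and 1284 with ATF7-NPFF on the same strand, was lower in SUM159 at -1.04.

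The 12 CREB, ATF and C/EBP genes include some whose proteins can dimerize with members of the group. Of these 12, 2 were higher in MDA-MB-231, and in SUM159 1 was higher and 1 lower. DDIT3, which encodes CHOP, a stress factor that pairs with C/EBP proteins, was higher in both, with log2 fold changes of 2.93 and 1.40. Its counts were 255 and 1613 in MDA-MB-231 and 179 and 590 in SUM159, and 355 of its 1307 exonic bases are shared with MARS1 on the opposite strand. CEBPB was higher in MDA-MB-231 at 1.34, and CEBPD lower in SUM159 at -1.39. ATF5 had negative values in both at -0.68 and -0.65. The medians were 0.37 and -0.13.

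Of EGR family genes and their corepressors, 0 of the 3 compared in MDA-MB-231 and 0 of the 4 in SUM159 differed by 2-fold, with medians of -0.34 and -0.24. EGR2 was at 0.47 and 0.60, on only 13 to 89 counts, and the corepressor NAB2, itself an EGR1 target, at -0.34 and -0.61. Among 26 kinases and factors that act on FOS and JUN genes or proteins, 25 could be compared in each line. In MDA-MB-231, 0 were higher and 1 lower, MAPK3 (ERK1), at -1.01. In SUM159, MAP2K3 (1.06) and MAPK13 (1.44) were higher and MAPK10 (-2.28) and MAP2K2 (-1.16) lower. Median changes were -0.34 and -0.074. RNA levels of kinases say nothing of their activity.

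Of 20 other immediate-early genes, MDA-MB-231 had 7 at least 2-fold higher and 1 lower and SUM159 had 8 and 1, with medians of 0.45 and 0.75. ARC, a synaptic immediate-early gene, had 3 and 87 counts in MDA-MB-231 and 10 and 101 in SUM159, log2 fold changes of 5.07 (3.54 to 7.44) and 3.01 (2.08 to 4.12). The nuclear receptor gene NR4A3 had 7 and 66 counts and 6 and 59, with changes of 3.48 and 2.96. NR4A1 (2.69 and 1.53), KLF4 (2.52 and 1.00) and DUSP1, a phosphatase that switches off MAP kinases (2.08 and 1.72), were also higher in both lines. KLF2 was lower in MDA-MB-231 (-1.71) and BTG2 in SUM159 (-1.20), and TRIB1, a pseudokinase gene, had negative values in both (-0.43 and -0.95). IER3, PHLDA1 and CCN2 were at 2.25, 2.05 and 2.29 in SUM159 and at 0.23, -0.17 and -0.17 in MDA-MB-231. Of the 1350 exonic bases of IER3, 440 are shared with IER3-AS1 and 85 with HCG20, both on the opposite strand.

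Of 19 genes known as AP-1 targets, in MDA-MB-231, 7 of 16 compared were at least 2-fold higher and 1 was lower, and in SUM159 13 of 18 were higher and 0 were lower. The medians, 0.75 and 2.08, were above those of the members themselves. IL24, a cytokine of the IL-10 family, had 28 and 1421 counts in MDA-MB-231 and 29 and 2856 in SUM159. Its log2 fold change was 5.93 (5.40 to 6.53) and 6.30 (5.78 to 6.89), and 823 of its 1979 exonic bases are shared with FCMR on the opposite strand. The collagenase gene MMP1 had 42 and 115 counts in MDA-MB-231 and 312 and 12005 in SUM159, changes of 1.72 (1.20 to 2.27) and 4.95 (4.79 to 5.12). MMP13, a further collagenase, went from 1 to 23 and from 8 to 146 counts, at 4.62 (2.17 to 10.2) and 3.86 (2.86 to 5.11). TIMP1, an inhibitor of these enzymes, was lower in MDA-MB-231 at -1.07 and had a value of 0.88 in SUM159.

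PLAUR and HBEGF, which code for the urokinase receptor and a ligand of the EGF receptor, were at least 2-fold higher in SUM159, at 1.83 and 2.02, and were at 0.22 and -0.057 in MDA-MB-231. The cytokine genes IL6 (4.71 and 2.14) and CXCL8 (2.16 and 5.27) were at least 2-fold higher in both lines. CD44, also listed as a target, was at -0.014 and -0.44. MMP10, which had too few counts for comparison, went in SUM159 from 0, which allows up to 0.160 CPM (3 counts), to 14.

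ATF3 is known to be transcribed downstream of ATF4 in the integrated stress response. Of 10 genes of this response and of DNA damage, 7 were higher in MDA-MB-231 and 5 in SUM159, with 0 lower and medians of 1.42 and 0.88. ATF4 RNA was at 0.059 and -0.51, although ATF4 is controlled mainly in translation, which counts do not show. DDIT3 belongs to this group too. CHAC1, an enzyme that breaks down glutathione, was at 1.73 and 1.40, and PPP1R15A (GADD34), which ends the translation block, at 1.99 and 1.33. GADD45A was at 1.33 and 1.53, and ASNS, on 19 to 77 counts and with 2415 of its 4896 exonic bases in a further gene on the same strand, at 1.37 and 1.24. TRIB3 and SESN2 reached 2-fold in MDA-MB-231, at 1.47 and 1.99, and were at 0.52 and 0.20 in SUM159. DDIT4 was at -0.38 and -0.052.

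**Figure D5:**
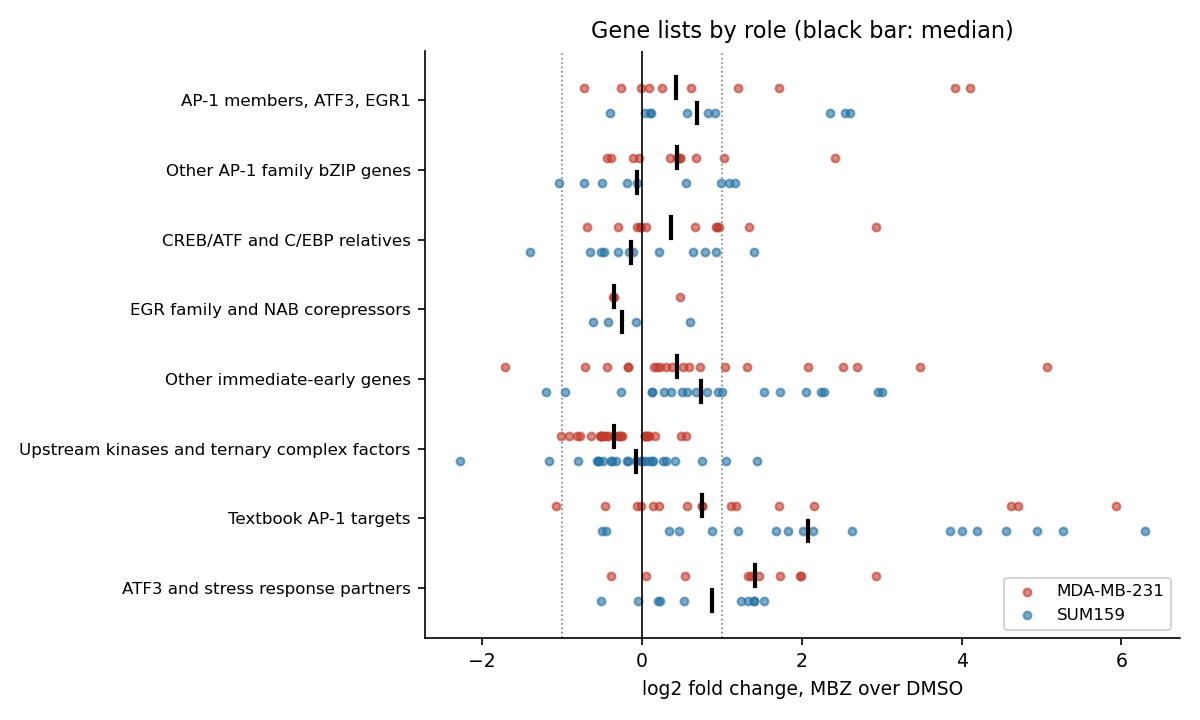
Log2 fold change (MBZ over DMSO) on the horizontal axis for the members and 7 groups of genes linked to them. Each point is 1 gene in MDA-MB-231 (red) or SUM159 (blue), black bars are medians and dotted lines mark a 2-fold change. AP-1 targets have medians of 0.75 and 2.08, and the upstream kinases -0.34 and -0.074.

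Genes with the TRE in their RefSeq window were counted in the same way, as a description with no test. Of 566 such genes compared in MDA-MB-231, 82 were at least 2-fold higher, 14.5%, against 7.74% of the 11075 genes with any window, and 5.12% were lower against 4.65%. In SUM159, 90 of 583 were higher, 15.4%, against 10.8% of 11323, and 11.1% were lower against 9.94%. For the full CRE the shares higher were 8.11% of 419 and 11.9% of 430 genes, near those of all windows, and the shares lower were 3.10% and 6.28%. For TGACATCA, the sequence in the ATF3 and JUN windows, in MDA-MB-231 28 of 230 genes were higher (12.2%) and 11 lower, and in SUM159 32 of 257 were higher (12.5%) and 36 lower, so that more were lower than higher there. For TGACG the shares higher were 6.43% and 10.1%, under those of all windows, and for the CArG box MDA-MB-231 had 9.66% in each direction, while SUM159 had 9.44% higher and 13.3% lower. The median log2 fold change of genes with the TRE was 0.040 and -0.022. These genes share libraries, and base composition was not matched.

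Genes with the pattern most like a member's over the 4 libraries were found by the distance between centred log2 CPM profiles, among the 11152 genes that averaged 100 counts or more. For ATF3 the closest was FOSB, at a distance of 0.415, followed by the linker histone gene H1-2 (1.08), DDIT3 (1.29) and BIRC3 (1.32). For FOS they were DNAJB4 (0.327), TRIB3 (0.332), SERP1 (0.364) and ENTPD7 (0.371). Genes most like FOSL1 were PRDM8 (0.110), KIF14 (0.150), SKA3 (0.235) and CIP2A (0.246). KIF14, for example, had 1174 and 833 counts in MDA-MB-231 and 78 and 612 in SUM159. For JUNB they were the unnamed gene ENSG00000279088 (0.254), TMEM147-AS1 (0.286), FAM167A (0.290) and OFD1 (0.300). With 4 libraries, such closeness is a description of a pattern and not of a link between genes.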

How the data were processed

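Poly-A RNA of both lines was sequenced, with 1 library per condition. Per the labels and the paper, STAR 2.5 was used for alignment to GRCh38 and HTSeq 0.6.1, in union mode, for counting, and the counts deposited by the authors are raw read numbers per gene. The annotation release and strand setting were not given in the sources used here. Samples were grouped by their labelled line and dose.

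Fold changes were computed from log2 CPM with a prior count of 0.125 (edgeR 4.0.16, R 4.3.3), with TMM over the pair of a line. A count of 0 allows up to 3 counts, or 0.120 to 0.175 CPM. The shared test used edgeR's quasi-likelihood fit with filterByExpr and TMM over the 4 libraries (common biological coefficient of variation 0.323), and DESeq2 1.42.0 as an alternative. The SE was taken from the F statistic. Exonic lengths, coordinates and overlaps are of GENCODE release 44, and promoter windows of RefSeq. Other alternatives were 3 scalings, a prior count of 2, a fold of 1.5, a counting interval past a fold of 1.5, minimum means of 100 counts, and every gene with 1 count. The functions were tested on simulated data. The members and the gene lists were chosen with earlier results of these data known. All 10 members are named, and from each list the gene that changed most in each direction by the smaller of the 2 lines' changes, those needed to account for small counts, and others chosen after their values were seen (MAFK, NR4A1, NR4A3, KLF4, DUSP1, IER3, PHLDA1, CCN2, MMP1, MMP10, MMP13, IL6, CXCL8, PLAUR, HBEGF, ATF4, TRIB3 and SESN2).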

Additional observations from a re-analysis of the deposited data

Results flagged for a closer look

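For 3 members the counting intervals of the log2 fold change lay above 0 in SUM159 or MDA-MB-231 and under 0 in the other line. The difference, SUM159 minus MDA-MB-231, was 2.87 for FOSL1, 1.28 for BATF3 and -0.64 for JUND. With 1 library per condition these differences between the lines were not tested.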

How the results depend on the processing

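Of the members' log2 fold changes within a line under the other scalings and the larger prior count, 65 lay within the counting interval of the reported value, 14 lay outside it with a direction that was the same or had not been clear, and 1 with a clear direction changed sign: FOSL1 in MDA-MB-231 was 0.0051 with total counts. FOSL2 in MDA-MB-231, whose interval includes 0, was 0.0073 with TMM over the 4 libraries and 0.26 with total counts. In SUM159, 5 members were higher with total counts, as were 18.4% of all genes, and 5 with a fold of 1.5, as were 21.5%. With a fold of 1.5, 1 member (BATF3) was lower in MDA-MB-231, as were 15.8% of genes. DESeq2's Wald test and the edgeR fit on every gene with at least 1 count each called 2 members in the shared test, ATF3 and FOSB, among 96 and 298 genes, where RLE normalization and the model with no line term called 0. DESeq2 left 2497 adjusted p-values out.

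No pairing by replicate number was possible because each condition has 1 library and the conditions share only replicate number 1. The replicate number therefore cannot serve as a block. The shared test compares MBZ with DMSO within each line through its line term. Leaving out a library leaves no residual degrees of freedom. Counting error limits mainly FOSB, FOS and BATF3, and the spread between cultures is unknown for every gene.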
